A study of Homo sapiens with 12 samples.

Results

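The RNA exosome subunits are the 10 genes EXOSC1 to EXOSC10, taken by gene id from the annotated genes of the array, where they are 10 of 18239 genes with a probe set of their own. They had 18 such probe sets, and each gene was represented by the one with the highest mean over the 12 arrays. The probe sets were thus chosen by their mean level and by no treatment contrast. The 10 genes themselves were chosen with earlier results of these data known, so their counts describe them and give no independent test. The means of the chosen probe sets ran from 8.59 for EXOSC5 to 10.26 for EXOSC9 on the log2 scale. All 10 genes passed the filter on low levels, as did 13120 genes of the array in all.

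RNA came from 3 established human lymphoma lines of the ABC-DLBCL kind, a large B cell lymphoma that resembles activated B cells and has constant NF-kB signalling, which the series' title ties to a MYD88 mutation. Each line, OCI-LY3, OCI-HBL1 and OCI-LY10, gave 1 array per treatment, so n = 3 in each group. Combo cells received CPI203 and IRAKi together, CPI203 cells received that inhibitor of BET bromodomain proteins alone at 500 nM, IRAKi cells received an inhibitor of the IRAK kinases alone at 50 µM, and Control cells have no further description of their treatment. By the labels, Combo, CPI203 and Control lasted 24 h and IRAKi 6 h, and by the protocol the BET inhibitor was present for 18 h and the IRAK inhibitor for 6 h. Inhibitor and label time therefore cannot be told apart wherever IRAKi alone is set against another group. Each replicate is a different line, so the p-values measure the spread between these samples only.

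The exosome is a protein complex that degrades and trims RNA from its 3′ end, in the nucleus and in the cytoplasm. In human cells EXOSC4 to EXOSC9 form a ring that does not cut RNA itself, EXOSC1 to EXOSC3 form a cap of RNA-binding proteins on the ring, and the cutting is done by the attached nucleases EXOSC10, DIS3 or DIS3L. The complex processes ribosomal RNA precursors, removes short-lived noncoding transcripts and degrades messenger RNA after its tail has been shortened.

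Levels are RMA log2 values, so a change of -1 is a halving, and a level of one probe set is not comparable with that of another. Array medians lay between 4.64 and 4.73. All 7 of the B cell markers measured and all 6 markers of the activated B cell-like type were above the filter level of 4.20 on every array. Of the markers of other cells, 3 of 6 for T and NK cells, 1 of 5 for myeloid cells and 3 of 5 for epithelial cells and fibroblasts were above it on at least 3 arrays and none on every array. The highest of these was EPCAM, with levels from 3.64 to 6.92, and HBB, the erythroid marker measured, lay between 4.31 and 5.10. The IRAKi array of OCI-LY10 stood apart in several measures, with the lowest median, the highest mean of nonspecific probe sets (4.00, against 3.64 to 3.79 on the others) and the highest 3′ minus 5′ differences of GAPDH (0.02) and ACTB (1.58). Their part in the results was not tested, and the counts and medians of IRAKi were also taken without that array. The mean of the poly-A spike-in probe sets was higher than in Control by 0.48 ± 0.26 with Combo, by 0.31 ± 0.17 with CPI203 and by 0.23 ± 0.04 with IRAKi (log2, SD, n = 3). With every array scaled to those spike-ins, the median change of all genes was -0.49, -0.30 and -0.23 for Combo, CPI203 and IRAKi against Control. The split of called genes with Combo was then 513 higher and 5644 lower, against 2023 higher and 2191 lower on the values as deposited.

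With Combo, the exosome subunits, a set chosen with earlier results of these data known, were lower in RNA level as a group. Of the 10 subunits, 8 fell and none rose in limma's test across all genes at an adjusted p below 0.05 (Benjamini-Hochberg), where 16.7% of all genes tested were called lower and 15.4% higher. In 9 of 10 the Combo array was below the Control array in all 3 lines, as in 27.8% of all genes, and in 7 of 10 every Combo array was below every Control array, as in 8.98% of all genes. The median log2 change of the 10 was -0.65, with line medians of -0.82 for OCI-LY3, -0.55 for OCI-HBL1 and -0.66 for OCI-LY10 (SD 0.14, n = 3), against a median of -0.0031 over all genes. Relative to the spike-ins the median of the subunits was -1.14. In RNA of whole cultures, fewer cells expressing a gene and less RNA per cell cannot be told apart.

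**Figure D1:**
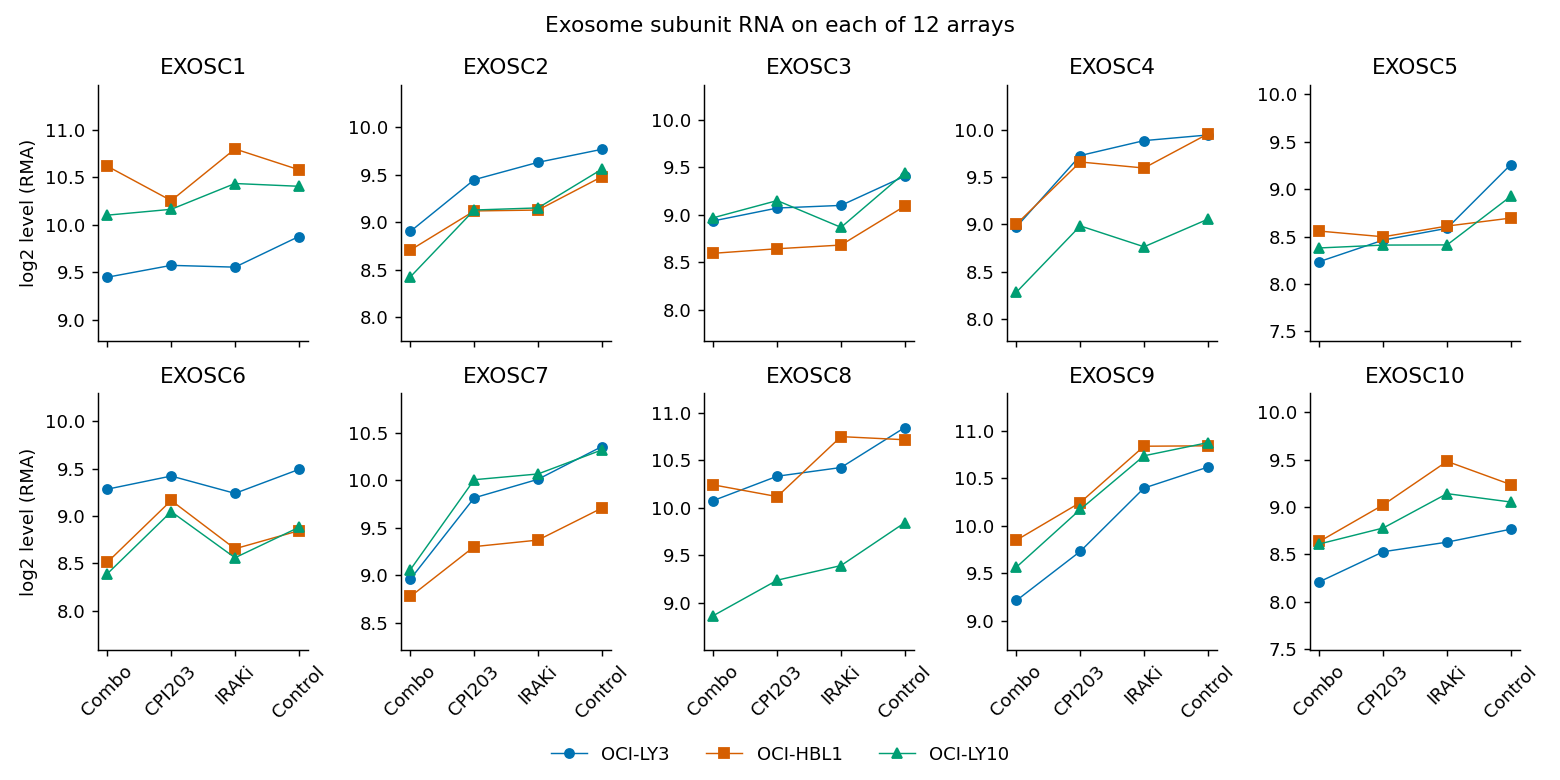
The RMA log2 level of each exosome subunit (y axis, 1 panel per gene, the same span in each panel) on each array, by treatment (x axis), with 1 symbol and 1 joining line per cell line. The 3 Combo arrays lie below the 3 Control arrays in 7 of 10 panels, and in EXOSC2 and EXOSC7 the Combo arrays are below all 9 other arrays.

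EXOSC9 and EXOSC7, both subunits of the ring, had the largest changes of the 10 with Combo. The level of EXOSC9 was 9.21, 9.85 and 9.56 with Combo, 9.73, 10.24 and 10.17 with CPI203, 10.40, 10.84 and 10.74 with IRAKi, and 10.62, 10.84 and 10.88 in Control (OCI-LY3, OCI-HBL1 and OCI-LY10 in each group). Every Combo and every CPI203 array was below every Control array, while the IRAKi arrays overlapped the Control arrays. EXOSC9 fell by 1.24 ± 0.11 (log2, SE) with Combo, to 42.4% of the Control level, with an adjusted p of 0.000105 in limma's test. It stood at rank 413 from the lowest change among 13120 genes.

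EXOSC7 measured 8.96, 8.78 and 9.06 with Combo, 9.82, 9.30 and 10.01 with CPI203, 10.01, 9.37 and 10.07 with IRAKi, and 10.36, 9.71 and 10.32 in Control. The 3 Combo arrays were the lowest of the 12, and OCI-HBL1 was the lowest line in every group. EXOSC7 fell by 1.20 ± 0.12 with Combo, to 43.7% of the Control level (limma adjusted p = 0.000204). The promoters of EXOSC9 and EXOSC7 are shown because these genes had the largest changes of the 10, and that of EXOSC5 because it alone of the 8 subunit promoters listed holds the E-box CACGTG, a sequence that MYC and related factors can bind. They are RefSeq sequences of GRCh38.p14, from 250 bases before to 50 bases after the start of the gene, read 5′ to 3′ on the gene's strand, with any CACGTG in capitals.
EXOSC9, chr4:121801073-121801372, plus strand: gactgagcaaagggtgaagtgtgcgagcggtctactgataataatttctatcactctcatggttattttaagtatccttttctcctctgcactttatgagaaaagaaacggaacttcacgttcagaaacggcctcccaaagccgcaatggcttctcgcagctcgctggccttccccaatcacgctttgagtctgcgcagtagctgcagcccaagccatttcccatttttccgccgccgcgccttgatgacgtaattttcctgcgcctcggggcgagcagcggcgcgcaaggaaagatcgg
EXOSC7, chr3:44975994-44976293, plus strand: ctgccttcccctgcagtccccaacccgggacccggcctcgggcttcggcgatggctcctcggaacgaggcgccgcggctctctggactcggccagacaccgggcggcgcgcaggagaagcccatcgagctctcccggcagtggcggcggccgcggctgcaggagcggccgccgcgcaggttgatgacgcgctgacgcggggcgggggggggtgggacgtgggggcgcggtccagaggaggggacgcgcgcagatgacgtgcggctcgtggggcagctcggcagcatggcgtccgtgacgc
EXOSC5, chr19:41397310-41397609, minus strand: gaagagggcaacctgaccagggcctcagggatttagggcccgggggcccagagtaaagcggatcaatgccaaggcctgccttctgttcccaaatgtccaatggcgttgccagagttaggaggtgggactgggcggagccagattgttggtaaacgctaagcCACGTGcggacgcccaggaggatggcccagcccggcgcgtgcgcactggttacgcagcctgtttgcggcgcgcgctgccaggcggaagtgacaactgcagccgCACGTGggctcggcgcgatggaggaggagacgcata

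A promoter was listed for 8 of the 10 subunits, all but EXOSC1 and EXOSC4, among 35116 promoters in all. Of those 8, the promoter of EXOSC5 held CACGTG in 2 copies, from -89 to -84 and from 15 to 20 relative to the start, and 7.26% of all promoters held it. The NRF1 motif GCATGCG was found in EXOSC10 on both strands in overlapping copies between -37 and -30, and in 3.91% of all promoters. The YY1 motif ATGGCGG stood in EXOSC8 from 21 to 27 and, on the opposite strand, in EXOSC6 from 36 to 42, and in 5.55% of all promoters. The ETS motif CCGGAAG, present in 10.3% of all promoters, was in none of the 8. Both strands were searched, and a match describes these letters only.

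Of the other 4 ring subunits, EXOSC4, EXOSC8 and EXOSC5 fell with Combo and EXOSC6 did not pass. EXOSC4 measured 8.97, 9.00 and 8.29 with Combo, 9.73, 9.66 and 8.98 with CPI203, 9.88, 9.59 and 8.76 with IRAKi, and 9.94, 9.95 and 9.06 in Control. OCI-LY10 was the lowest line in every group, and within each line the Combo array was the lowest. EXOSC4 fell by 0.90 ± 0.11 with Combo (limma adjusted p = 0.000498).

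EXOSC8 measured 10.07, 10.24 and 8.86 with Combo, 10.33, 10.12 and 9.24 with CPI203, 10.42, 10.75 and 9.39 with IRAKi, and 10.84, 10.72 and 9.84 in Control. It fell by 0.74 ± 0.14 with Combo (limma adjusted p = 0.00295), with OCI-LY10 again the lowest line in each group and with Combo and Control arrays that overlapped between lines. The levels of EXOSC5 were between 8.24 and 8.56 with Combo and between 8.69 and 9.26 in Control. EXOSC5 fell by 0.57 ± 0.15 with Combo (limma adjusted p = 0.0185), and its Combo and Control arrays did not overlap. EXOSC6, the last of the ring, ran from 8.39 to 9.28 with Combo and from 8.84 to 9.49 in Control, and these ranges overlapped. Its change of -0.34 ± 0.12 was not past the test (limma adjusted p = 0.0598).

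Of the 3 cap subunits, which contact RNA at the entrance of the ring, 2 fell with Combo. EXOSC2 measured 8.90, 8.71 and 8.42 with Combo, 9.45, 9.12 and 9.13 with CPI203, 9.63, 9.13 and 9.15 with IRAKi, and 9.77, 9.48 and 9.56 in Control. Every Combo array was below every array of the other groups, and EXOSC2 fell by 0.92 ± 0.11 (limma adjusted p = 0.000374). EXOSC3 measured 8.93, 8.59 and 8.97 with Combo, 9.07, 8.64 and 9.15 with CPI203, 9.10, 8.68 and 8.87 with IRAKi, and 9.41, 9.09 and 9.44 in Control. Its Combo arrays were all below its Control arrays and overlapped those of both single inhibitors. EXOSC3 fell by 0.48 ± 0.11 with Combo (limma adjusted p = 0.00711), a call that was lost when any line was left out: limma's adjusted p was 0.0754 with OCI-LY3 left out, 0.0564 with OCI-HBL1 left out and 0.056 with OCI-LY10 left out.

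EXOSC1 was the cap subunit that did not pass. It measured 9.45, 10.62 and 10.10 with Combo, 9.57, 10.25 and 10.16 with CPI203, 9.55, 10.80 and 10.43 with IRAKi, and 9.88, 10.58 and 10.40 in Control. OCI-LY3 was the lowest line throughout, and in OCI-HBL1 the Combo array was slightly above the Control array. The change with Combo was -0.23 ± 0.14, with a 95% interval from -0.54 to 0.07 (limma adjusted p = 0.233).

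EXOSC10 is the nuclear exonuclease of the complex and is enriched in the nucleolus. It measured 8.21, 8.64 and 8.61 with Combo, 8.53, 9.02 and 8.78 with CPI203, 8.63, 9.48 and 9.14 with IRAKi, and 8.77, 9.24 and 9.05 in Control. In each line the Combo array was the lowest of the 4, and all Combo arrays were below all Control arrays. EXOSC10 fell by 0.53 ± 0.11 with Combo (limma adjusted p = 0.0065).

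The count of 8 calls with Combo depended on the lines in the fit. It was 5 with OCI-LY3 left out and 4 with OCI-LY10 left out, and 3 in a fit with no replicate block, which ignores the line. The share of all genes called lower was also smaller in those fits, at 8.49%, 8.83% and 1.6%, against 16.7%. Limma's adjusted p with OCI-LY3 left out was 0.216 for EXOSC5 and 0.0633 for EXOSC10. With OCI-LY10 left out it was 0.119 for EXOSC5, 0.0552 for EXOSC10 and 0.0574 for EXOSC8. EXOSC2, EXOSC7 and EXOSC9 were called in 15 of 15 alternatives.

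**Figure D2:**
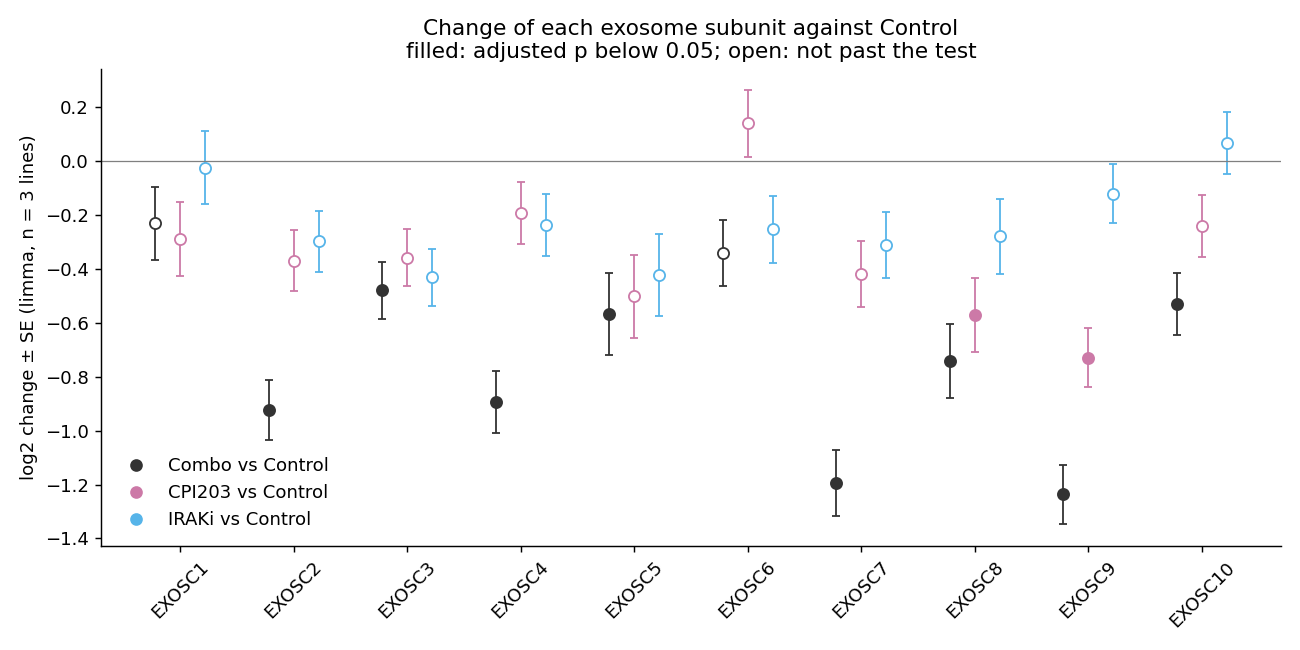
The limma log2 change of each exosome subunit (x axis) against Control (y axis, points with bars of 1 SE, n = 3 lines), with filled points at an adjusted p below 0.05. The 8 filled Combo points lie between -0.48 and -1.24, CPI203 has 2 filled points, at EXOSC8 and EXOSC9, and IRAKi has none.

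CPI203 alone was followed by lower levels of a smaller number of subunits. Of the 10, 2 fell and none rose, where 6.21% of all genes were called lower and 6.92% higher. EXOSC9 fell by 0.73 ± 0.11 (limma adjusted p = 0.0043), to 60.3% of the Control level, and EXOSC8 by 0.57 ± 0.14 (limma adjusted p = 0.0254). A further 4 subunits lay just outside the threshold by limma's adjusted p: EXOSC7 at -0.42 ± 0.12 with 0.051, EXOSC3 at -0.36 ± 0.11 with 0.0526, EXOSC2 at -0.37 ± 0.11 with 0.0577 and EXOSC5 at -0.50 ± 0.15 with 0.0586. The median of the 10 was -0.36 (SD of the 3 line medians 0.02), against 0.0081 over all genes, and 9 of 10 were lower in all 3 lines, as in 25.2% of all genes. In 3 of 10 every CPI203 array was below every Control array, as in 5.3% of all genes.

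EXOSC6 was the subunit whose change with CPI203 was above 0. It measured 9.42, 9.16 and 9.05 with CPI203, against 9.49, 8.84 and 8.88 in Control. The CPI203 array was the higher in OCI-HBL1 and OCI-LY10 and the lower in OCI-LY3. The change of 0.14 ± 0.12 was not past the test (limma adjusted p = 0.515) and was -0.17 when arrays were scaled to the spike-ins. The number of subunits called with CPI203 was 0 with OCI-LY3 left out, 1 with OCI-HBL1 left out and 0 with OCI-LY10 left out. It was 0 in the fit with no replicate block. The shares of all genes called lower in those fits were 0.93%, 2.64%, 1.12% and 0.0152%, against 6.21% in the fit used throughout. The number was 6 with cyclic loess, array weights, trended and robust variances, spike-in scaling or the stricter filter. In those settings 7.37% to 12.2% of all genes were called lower.

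With IRAKi alone no subunit passed the test in limma, and 0.0534% of all genes, which is 7 genes, were called lower and 0.114% higher. At an unadjusted p below 0.05 there were 4 subunits of 10, and 15.4% of all genes. These 4 were EXOSC3 at -0.43 ± 0.11, EXOSC5 at -0.42 ± 0.15, EXOSC7 at -0.31 ± 0.12 and EXOSC2 at -0.30 ± 0.11, with limma adjusted p-values from 0.12 to 0.272. The median of the 10 was -0.27 (SD of the 3 line medians 0.09), against -0.00074 over all genes, and 7 of 10 were lower in all 3 lines, as in 19.1% of all genes. In 1 of 10, EXOSC5, every IRAKi array was below every Control array, as in 2.46% of all genes. Without the OCI-LY10 IRAKi array the count of calls was also 0, as it was over all genes, and the median of the 10 was -0.24. EXOSC9, with the largest change under Combo and under CPI203, was at -0.12 ± 0.11 with IRAKi, and EXOSC10 was at 0.07 ± 0.11. The other probe set of EXOSC10 had the opposite sign, at -0.38 ± 0.12, and did not pass (limma adjusted p = 0.191). The changes with Combo, CPI203 and IRAKi all share the same 3 Control arrays.

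Set directly against CPI203 alone, Combo had lower levels of 4 subunits and a higher level of none, where 2.71% of all genes were called lower and 1.96% higher. EXOSC7 fell by 0.78 ± 0.12 (limma adjusted p = 0.0128), EXOSC4 by 0.70 ± 0.11 (0.0151), EXOSC2 by 0.55 ± 0.11 (0.0284) and EXOSC9 by 0.51 ± 0.11 (0.0353). EXOSC6 was at -0.48 ± 0.12 (limma adjusted p = 0.0581). EXOSC10 was at -0.29, with a 95% interval from -0.55 to -0.03 and an adjusted p of 0.191 in limma. The intervals of the remaining 4, none past the test, held 0 and ran from -0.48 to 0.14 for EXOSC8, from -0.25 to 0.36 for EXOSC1, from -0.36 to 0.12 for EXOSC3 and from -0.41 to 0.28 for EXOSC5. The count was 0 with OCI-LY3 left out, 0 with OCI-HBL1 left out and 0 with OCI-LY10 left out. In each of these fits 0% of all genes were called lower, so no subunit could be counted as lower there.

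Against IRAKi alone, Combo had lower levels of 6 subunits, where 10.5% of all genes were called lower and 8.21% higher. EXOSC9 fell by 1.12 ± 0.11 (limma adjusted p = 0.000591) and EXOSC7 by 0.88 ± 0.12 (0.00191). EXOSC4, EXOSC2, EXOSC10 and EXOSC8 fell by 0.66, 0.62, 0.60 and 0.46, with limma adjusted p-values from 0.00488 to 0.0439. EXOSC3, at -0.05 ± 0.11, and EXOSC6, at -0.09 ± 0.12, did not pass. The count of 6 was 1 with OCI-LY3 left out and 3 with OCI-LY10 left out. Leaving out just the IRAKi array of OCI-LY10 gave 5. The shares of all genes called lower in these fits were 2.16%, 3.59% and 7.05%.

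The interaction term, Combo minus CPI203 minus IRAKi plus Control, asks whether the change with both inhibitors differs from the sum of the single log2 changes. By the labels IRAKi lasted 6 h and the other groups 24 h, so inhibitor and label time cannot be told apart in this term. Limma called none of the 10 subunits at an adjusted p below 0.05, and it called 1 gene of the array, or 0.00762%, as higher and 0% as lower. At an unadjusted p below 0.05 there were 3 subunits and 8.27% of all genes. The 3 were EXOSC4, with a term of -0.47 ± 0.16, EXOSC7 with -0.46 ± 0.17 and EXOSC9 with -0.39 ± 0.16, and limma's adjusted p-values were 0.50, 0.52 and 0.56. The term was below 0 in 6 subunits and above 0 in 4, of which EXOSC5 had the highest, 0.36 ± 0.22. That of EXOSC10 was -0.36 ± 0.16 on the chosen probe set and 0.05 ± 0.16 on its other one. For EXOSC7 the change with Combo was -1.20 beside a sum of -0.73, and for EXOSC5 it was -0.57 beside a sum of -0.93.

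**Figure D3:**
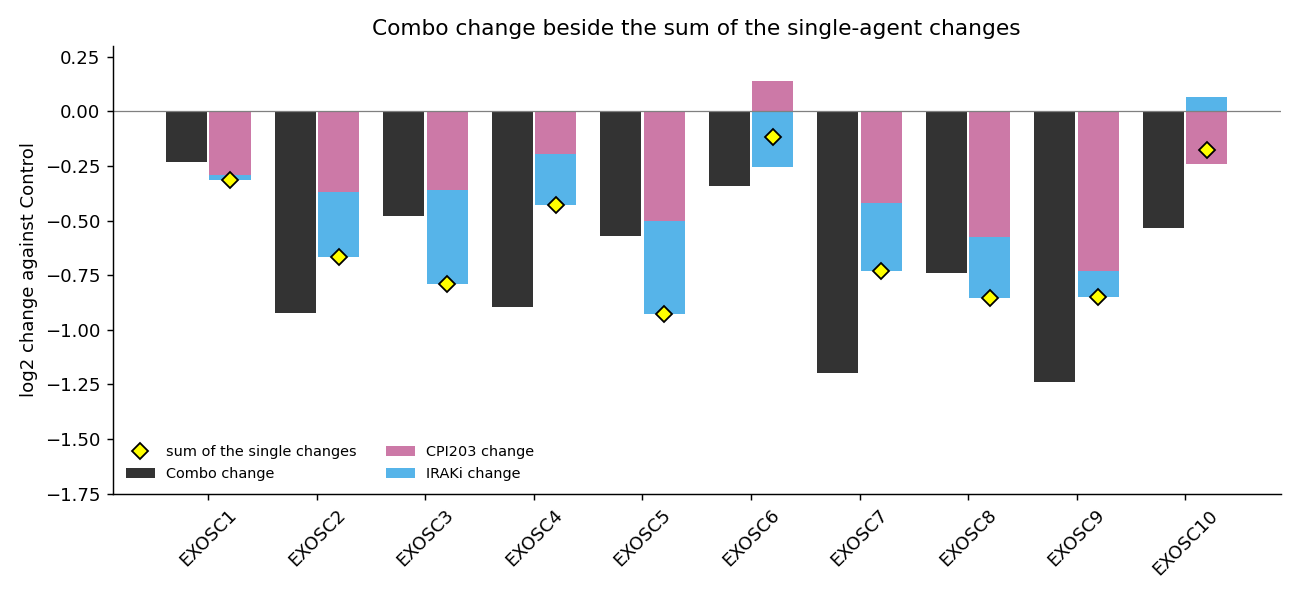
The log2 change against Control (y axis) of each exosome subunit (x axis), with a dark bar for Combo and stacked bars for CPI203 and IRAKi, whose sum is the diamond. The dark bar reaches below the diamond in EXOSC2, EXOSC4, EXOSC6, EXOSC7, EXOSC9 and EXOSC10, and no interaction term passed the test. IRAKi lasted 6 h and the other groups 24 h by the labels.

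DIS3 and DIS3L are the catalytic partners that the ring carries, DIS3 mostly in the nucleus and DIS3L in the cytoplasm. DIS3L measured 7.16, 6.24 and 6.33 with Combo, 7.75, 7.13 and 6.43 with CPI203, 7.61, 6.97 and 7.17 with IRAKi, and 7.94, 7.97 and 7.36 in Control. All Combo arrays were below all Control arrays, and DIS3L fell by 1.18 ± 0.21 (limma adjusted p = 0.00251). DIS3 measured 9.25, 8.52 and 9.26 with Combo, against 9.07, 9.21 and 9.45 in Control. These ranges overlapped and OCI-LY3 was higher with Combo, and the change of -0.23 ± 0.18 was not past the test (limma adjusted p = 0.37). With CPI203 the changes were -0.65 ± 0.21 for DIS3L and 0.04 ± 0.18 for DIS3 (limma adjusted p = 0.0713 and 0.926).

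The nuclear cofactors that bring RNA to the exosome did not move together with Combo. Of 14 measured genes, 3 rose, 2 fell and 9 did not pass, and their median change was -0.07. Among all genes 15.4% were called higher and 16.7% lower, so the cofactors' counts are near that background. TENT4B, a noncanonical poly(A) polymerase that tags RNA for the exosome, rose by 1.51 ± 0.13 (limma adjusted p = 8.81e-05). Its relative TENT4A rose by 0.79 ± 0.19 and ZFC3H1, of the complex that targets polyadenylated nuclear RNA, by 0.70 ± 0.12. MTREX, the helicase that feeds RNA into the nuclear exosome, fell by 0.98 ± 0.12 (limma adjusted p = 0.000481). With CPI203, TENT4B rose by 1.06 ± 0.13 and ZFC3H1 by 0.59 ± 0.12, MTREX fell by 0.54 ± 0.12, and the other 11 did not pass. Of all genes, 6.92% were called higher and 6.21% lower with CPI203. None of the 14 passed with IRAKi, where 0.114% of all genes were called higher and 0.0534% lower.

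The 4 genes of the SKI group, which serves the exosome in the cytoplasm, had changes from -0.06 to 0.09 with Combo, and none passed. Of 36 measured genes of other RNA decay routes, 2 rose, 7 fell and 27 did not pass with Combo, with a median of -0.06. The 7 that fell are near the 16.7% of all genes called lower, and the 2 that rose are a smaller share than the 15.4% called higher. DCPS, which destroys the cap that remains after decay from the 3′ end, fell by 1.20 ± 0.18 (limma adjusted p = 0.00118). DIS3L2, a nuclease of uridylated RNA that acts without the ring, fell by 0.80 ± 0.26, and PNPT1, a mitochondrial 3′ exonuclease, by 0.79 ± 0.10. CNOT4, a ubiquitin ligase linked to the CCR4-NOT deadenylase, rose by 0.84 ± 0.15. With CPI203, SMG5 rose by 0.60 ± 0.14, and DCPS fell by 1.11 ± 0.18, CNOT9 by 0.42 ± 0.11 and PNPT1 by 0.37 ± 0.10. The shares of all genes with CPI203 were 6.92% higher and 6.21% lower. None of the 36 passed with IRAKi, where those shares were 0.114% and 0.0534%.

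**Figure D4:**
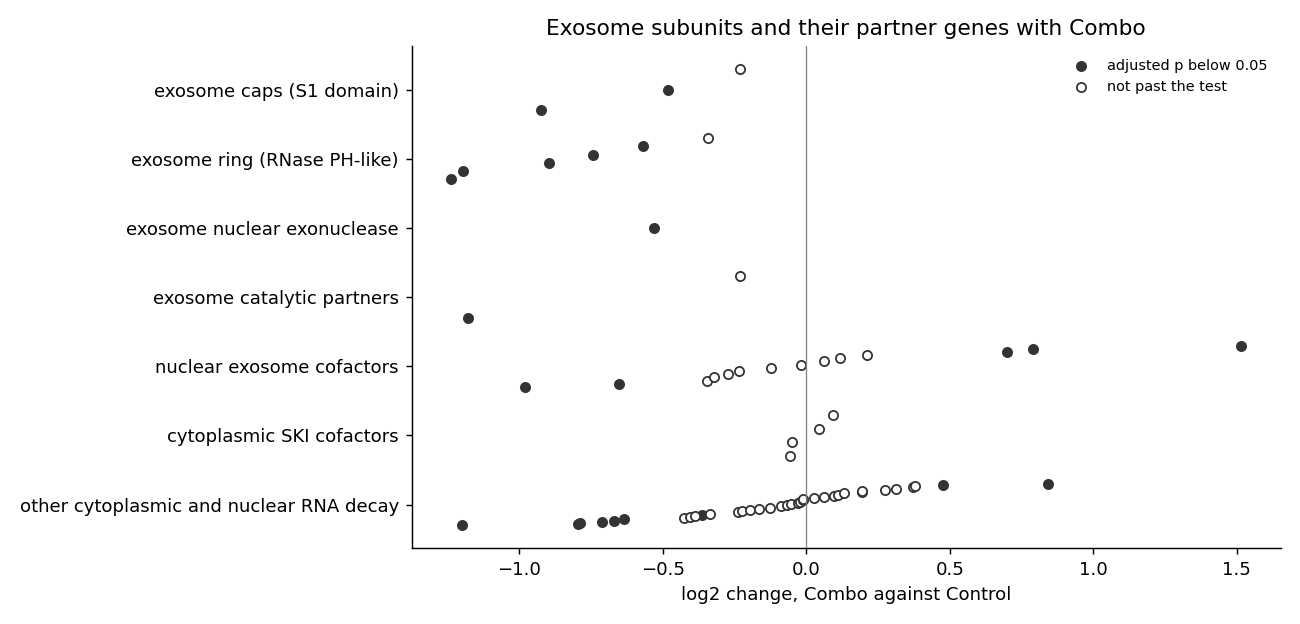
The log2 change with Combo against Control (x axis) of each gene in 7 lists (y axis), filled at an adjusted p below 0.05. The caps, the ring and EXOSC10 lie wholly below 0 and DIS3L at -1.18, while the nuclear cofactors run from -0.98 to 1.51 and the SKI genes stay within 0.1 of 0.

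The levels of the subunits were compared between the lines in the fit over all 4 treatments. OCI-LY3 compared with OCI-HBL1 had 4 subunits higher and 3 lower, where 25.1% of all genes were called higher and 22.2% lower. OCI-LY10 compared with OCI-HBL1 had 2 higher and 2 lower, where the shares were 22.8% and 25.8%. OCI-LY3 compared with OCI-LY10 had 4 higher and 3 lower, where the shares were 26% and 20.6%. Each line has 4 arrays of 4 treatments, so its spread is between arrays of a single line. With arrays scaled to the spike-ins, 3 subunits were called for OCI-LY3 against OCI-HBL1 and 4 for OCI-LY3 against OCI-LY10, and leaving out the IRAKi arrays also gave 4 for the last pair. Of all genes, 37.6%, 38.2% and 38.7% were called either way in these fits, in this order, so the counts are near that background.

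EXOSC8 was lowest in OCI-LY10, at 9.33 ± 0.41, against 10.45 ± 0.32 in OCI-HBL1 and 10.42 ± 0.32 in OCI-LY3 (log2 mean, SD, n = 4 arrays of different treatments). OCI-LY10 was lower than OCI-HBL1 by 1.12 on the log2 scale (limma adjusted p = 3.97e-05), and OCI-LY3 and OCI-HBL1 did not pass (adjusted p = 0.83). EXOSC4 had the same order at its lower end, with 8.77 ± 0.35 in OCI-LY10, against 9.55 ± 0.40 in OCI-HBL1. The difference of EXOSC4 was -0.78 (limma adjusted p = 0.000131).

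EXOSC1 was lowest in OCI-LY3, at 9.61 ± 0.18, against 10.56 ± 0.23 in OCI-HBL1 and 10.28 ± 0.17 in OCI-LY10. OCI-LY3 was lower than OCI-HBL1 by 0.95 (limma adjusted p = 0.00012), while OCI-LY10 and OCI-HBL1 did not pass (adjusted p = 0.0708). EXOSC10 and EXOSC9 were likewise lower in OCI-LY3 than in OCI-HBL1, with differences of -0.56 and -0.45, and lower than in OCI-LY10, with -0.36 and -0.35. Of the other probe sets of EXOSC9 against OCI-LY10, that at -0.32 did not pass and that at -0.28 did (limma adjusted p = 0.0606 and 0.0358). EXOSC6 was higher in OCI-LY3, by 0.56 against OCI-HBL1 and 0.64 against OCI-LY10. EXOSC2 was higher there too, by 0.33 and 0.37. EXOSC7 and EXOSC3 were lowest in OCI-HBL1, with OCI-LY10 higher by 0.57 and 0.35 and OCI-LY3 by 0.50 and 0.38. For EXOSC3 the other probe set was at -0.0478 in OCI-LY10 against OCI-HBL1 (limma adjusted p = 0.823) and did not bear the call out. In OCI-LY3 against OCI-HBL1 that probe set was at 0.24, the same direction, and did not pass (limma adjusted p = 0.227). EXOSC5 did not differ past the test in any pair of lines.

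**Figure D5:**
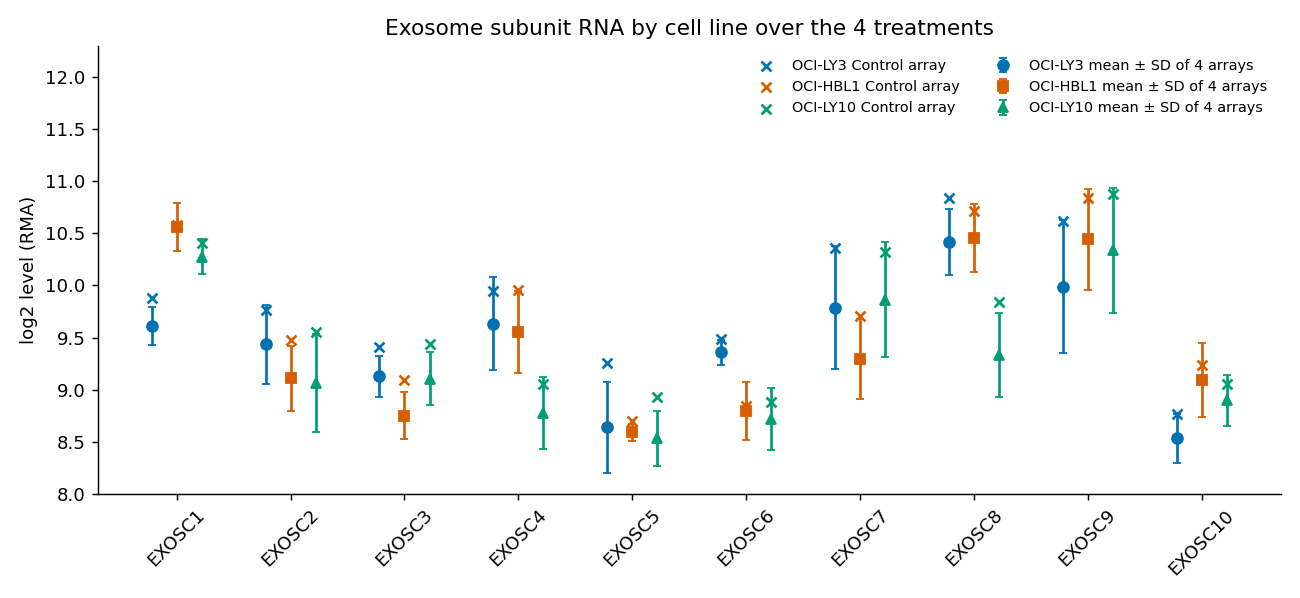
The RMA log2 level (y axis) of each exosome subunit (x axis) in each line, as the mean ± SD of its 4 arrays (1 per treatment), with a cross for the Control array. EXOSC8 and EXOSC4 are lowest in OCI-LY10 and EXOSC1 in OCI-LY3, while the EXOSC5 means lie within 0.11 of each other. Levels of different genes come from different probes and are not comparable.

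After each gene was centred within each line, the levels of the subunits were correlated over the 12 arrays to different degrees. Among their 45 pairs the median Pearson r was 0.71, and 44 pairs were above 0, from -0.22 for EXOSC1 with EXOSC6 to 0.98 for EXOSC2 with EXOSC7. The median r of a subunit with all genes tested lay between -0.025 for EXOSC1 and 0.034 for EXOSC3. The set was chosen with earlier results of these data known, so this difference is a description. EXOSC7, EXOSC2 and EXOSC9 had r of 0.97, 0.96 and 0.93 with the mean of the other 9, and EXOSC1 and EXOSC6 had 0.58 and 0.41. Ranked by r with the mean of all 10, the subunits stood between 17 (EXOSC7) and 3642 (EXOSC6) among 13120 genes, with EXOSC5 at 1446, EXOSC3 at 1582 and EXOSC1 at 2670. Each subunit is itself part of that mean, as the other genes are not, and its rank is favoured by this. These values describe 12 arrays that share 4 treatments and the same lines. The 5 genes of the array most like the mean of the 10 subunits were EXOG, FTSJ1 and DOCK10, each with r of 0.99, NOP16 with 0.99 and RPF2 with 0.98.

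Other probe sets of the subunits served as a check in a fit of all probe sets. Of the 10 subunits, 6 had another probe set, and 5 such probe sets of 4 genes passed the filter. With Combo, the other probe sets of EXOSC9 fell by 1.42 ± 0.11 and fell by 1.17 ± 0.14 (limma adjusted p = 8.08e-05 and 0.000416). That of EXOSC2 fell by 0.96 ± 0.13, and that of EXOSC10 by 0.86 ± 0.12 (limma adjusted p = 0.000766 and 0.000634). With CPI203 the other probe sets of EXOSC10 and EXOSC2 fell by 0.54 ± 0.12 and by 0.49 ± 0.13 (limma adjusted p = 0.0194 and 0.0451), where the chosen ones did not pass. EXOSC3 was the exception with Combo against Control: its other probe set, with a mean level of 5.59, was at -0.18 ± 0.18 (limma adjusted p = 0.482). For Combo against CPI203, the other probe set of EXOSC2 was at -0.47 ± 0.13 and not past the test (limma adjusted p = 0.0874). Those of EXOSC9 were at -0.64 ± 0.11, which passed, and -0.44 ± 0.14, which did not (limma adjusted p = 0.0193 and 0.125).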

How the data were processed

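RNA of 3 cell lines under 4 treatments was measured on 12 Affymetrix arrays from 150 ng of Trizol-prepared total RNA each. The values were deposited on the log2 scale, made by the authors with RMA in Affymetrix Expression Console 1.1 per the submitters' processing notes, and were used as deposited. RMA quantile-normalizes the arrays, so a shift common to all genes does not appear in the values. For the probe sets, the sources used here give neither a probe library nor a genome build. Of 49386 probe sets, 45253 carried 1 gene, and 99.8% of their genes matched the reference table by gene id. Genes entered the test when 3 or more arrays exceeded a log2 level of 4.20, the 40th percentile of the table.

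Treatment and cell line were fitted on all 12 arrays with limma 3.58.1 in R 4.3.3 (eBayes defaults, 6 residual degrees of freedom, prior 3.66). P-values are two-sided and adjusted by Benjamini-Hochberg over 13120 genes. The line is the replicate block, since the same line gave 1 array per treatment, and arrays of a line deviated together (r from 0.82 to 0.91). The fit was tested on simulated data. All subunits are named, with up to 4 called genes of each partner list by size of change, and DIS3 and DIS3L always. The subunits and lists were chosen with earlier results of these data known. The number of arrays limits the precision. Alternatives were other probe sets, no filter or a stricter one at the 60th percentile, other scalings, variance models, blocks, sets of groups and each line left out.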

Additional observations from a re-analysis of the deposited data

How the results depend on the processing

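Of the alternatives for single subunits over all comparisons, 1129 kept direction and side of the threshold, 95 lost a call, 40 gained one, 30 changed the sign of an uncalled value, and 1 reversed a call: EXOSC3 in OCI-LY10 against OCI-HBL1 was at -0.0478 on its other probe set. The counts for IRAKi against Control and for the interaction stayed at 0 in all alternatives. In the alternatives fitted by gene, 0% to 1.68% of all genes were called with IRAKi and 0% to 0.0109% for the interaction. The counts of 0 are therefore near that background.

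Counts of subunits called, and what moved them, were as follows. In a fit with no replicate block the count was 3 for Combo against Control and 0 for CPI203 against Control. It was 0 for Combo against CPI203 and 0 for Combo against IRAKi. The shares of all genes called lower there were, in this order, 1.6%, 0.0152%, 0% and 0.0229%. With the line as a random replicate block no count moved by over 1.5 times. Leaving out a line or the OCI-LY10 IRAKi array gave 4 to 8 for Combo against Control and 0 to 3 for CPI203 against Control. It gave 0 to 4 for Combo against CPI203 and 1 to 5 for Combo against IRAKi. The shares of all genes called lower in these fits were 8.49% to 16.5% for Combo against Control and 0.93% to 5.73% for CPI203 against Control. They were 0% to 2.42% for Combo against CPI203 and 2.16% to 7.05% for Combo against IRAKi. Fitting only the 2 groups gave 5, 0 and 2 for Combo against Control, CPI203 and IRAKi, with fewer arrays behind each spread. Of all genes, 8.61%, 0.732% and 4.04% were called lower in those fits. CPI203 against Control had 5 with the probe sets of a gene averaged, where 7.53% of all genes were called lower. It had 6 with the stricter filter, cyclic loess, spike-in scaling, trended and robust variances or array weights, where 7.37% to 12.2% were. Combo against CPI203 had 2 with spike-in scaling, where 2.56% of all genes were called lower. It also had 2 with each probe set fitted on its own, where all tested probe sets of a gene had to be called. No share of all genes was taken for that setting. Spike-in scaling gave 3 for OCI-LY3 against OCI-HBL1 and 4 for OCI-LY3 against OCI-LY10, and leaving out the IRAKi arrays gave 4 for the last. In these fits 37.6%, 38.2% and 38.7% of all genes were called either way. The cause of the moved counts was not tested.

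Median changes of the 10 subunits stayed below 0 in the 5 comparisons of treatments under the alternatives run. Spike-in scaling gave -1.14, -0.67 and -0.50 for Combo, CPI203 and IRAKi against Control, -0.56 for Combo against CPI203 and -0.78 for Combo against IRAKi. CPI203 against Control was -0.29 with mean probe sets, -0.34 with median centring, -0.40 with cyclic loess and -0.42 over every probe set. Over every probe set the median was -0.86 for Combo against Control and -0.60 for Combo against IRAKi. The medians over every probe set are of 15 probe sets, so a subunit with several of them counts several times. Leaving out a line or the OCI-LY10 IRAKi array gave -0.83 to -0.60 for Combo against Control, -0.37 to -0.34 for CPI203 against Control and -0.55 to -0.46 for Combo against IRAKi.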
